A study of Mus musculus with 22 samples.

Results

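The collagen chain genes were taken as every gene whose symbol is Col followed by a type number, the letter a and a chain number. There were 44 of them among the 55487 genes counted in each of 3 tables. Whole mouse dorsal root ganglia (DRG, the clusters that hold the cell bodies of sensory neurons) and cultures of DRG neurons were profiled by bulk RNA sequencing in 22 libraries of 8 groups. The series asks what POSTN, the secreted matrix protein periostin, does in DRG in a psoriasis-like setting. The T10-L5 ganglia came from wild-type (WT) and Postn knock out (KO) mice given vehicle or imiquimod (IMQ, which activates the receptor TLR7 and is used on mouse skin to model psoriasis) over 5 days, with 3 WT vehicle, 2 WT IMQ, 3 KO vehicle and 2 KO IMQ libraries. The cultures, WT or KO, stood in medium with or without recombinant POSTN (rPOSTN) over 72 h, with 3 libraries each of WT control, WT rPOSTN, KO control and KO rPOSTN. The sources used here do not give age, sex, strain, the design of the knock out allele or any pooling of animals. Nothing in the labels says that libraries of a group came from separate animals or cultures, so p-values measure the spread between these samples, which may be technical.

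Collagens are trimers of chains that wind into a triple helix in the endoplasmic reticulum, are hydroxylated and chaperoned there, and are trimmed and crosslinked outside the cell. Fibrillar types I, III and V make the tough fibrils of the connective tissue around nerves and ganglia, and type IV makes the network of basement membranes, which coat Schwann cells, satellite glia and vessels. The other families decorate fibrils (the fibril-associated collagens, FACITs), build beaded filaments (type VI) or short-chain hexagonal networks (types VIII and X), sit in the basement membrane zone (the multiplexins, types XV and XVIII) or span the cell membrane. Periostin binds fibrillar collagen and collagen-processing enzymes in the matrix. By family the 44 genes were 11 fibrillar, 6 basement membrane network, 6 beaded filament, 9 FACIT, 3 hexagonal network, 1 anchoring fibril, 4 transmembrane, 2 multiplexin and 2 other genes.

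Libraries held 16666489 to 24118303 counts. Levels are CPM, read counts per unit of library size, on library sizes scaled with the trimmed mean of M-values (TMM), and levels of different genes are compared only as CPM per kb of exon. Postn stood at 21.9, 28.0 and 22.7 CPM in the WT vehicle ganglia and at 4.04, 3.63 and 5.36 CPM in the KO vehicle ganglia, and was not at 0 in any KO library. In culture it stood at 656 to 961 CPM in WT libraries, at 67.1 to 104 CPM in KO libraries 1 and 2 of both treatments, and at 382 and 426 CPM in the KO control and KO rPOSTN libraries numbered 3. Their Postn lay between the other KO and the WT cultures, so the counts leave it unsettled whether these 2 libraries are what their KO label says, and every KO culture value below that includes them carries that doubt. Control cultures were tested against ganglia in 1 fit over all 22 libraries, so the spread of these 2 also enters the WT tests there. These 2 libraries stood apart in other genes too. Their summed level of 8 fibroblast markers was 239 and 296 CPM against 114 to 145 CPM in the other 4 KO culture libraries. Some results below are given with and without these 2 libraries, and others only with them. The 6 neuron markers were present in all cultures but lower than in ganglia, at 3821 to 3940.2 CPM in the WT control cultures and 7466 to 8197 CPM in the WT vehicle ganglia. The cultures labelled DRG neurons also held the Schwann cell, endothelial and fibroblast transcripts given below.

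In the WT vehicle ganglia the summed level of the 44 genes was 2152 ± 139 CPM (SD, n = 3), and fibrillar genes made up 56.7 ± 2.5% of it. Per kb of exon the highest members there were Col1a2 at 30.7, Col3a1 at 27.6, Col1a1 at 26.1, Col4a1 at 24.7 and Col5a3 at 24.3 CPM, followed by Col28a1 at 17.4, Col4a2 at 15.6 and Col6a1 at 13.8 CPM. These first 5 were not tested against each other. The chains of type I (Col1a1, Col1a2) and type III (Col3a1) stood beside Col4a1, a chain of the common type IV network, and Col5a3, a type V chain known from Schwann cells. Col28a1, of a collagen known from peripheral nerve, came next. The lowest of the 44 over all 22 libraries were Col9a1 with 45 counts, Col17a1 with 95 and Col4a6 with 164.

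In the WT control cultures the sum was 6072 ± 474 CPM (n = 3) and the order differed: Col4a1 at 171, Col28a1 at 101, Col4a2 at 90.6, Col18a1 at 72.0 and Col5a2 at 64.2 CPM per kb led, with Col5a3 at 56.6, Col16a1 at 45.1 and Col1a2 at 38.1 CPM per kb after them. Fibrillar genes made up 32.7 ± 0.0544% of the sum in culture. Basement membrane network genes went from 13.9 ± 0.526% in WT vehicle ganglia to 31.0 ± 0.464% in WT control cultures, multiplexins from 4.16 ± 0.308% to 10.5 ± 0.487%, and transmembrane collagens from 3.18 ± 0.338% to 0.211 ± 0.0184%. These shares are descriptions with no test. In a bulk sample, fewer cells of a type and less RNA per cell cannot be told apart.

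**Figure D1:**
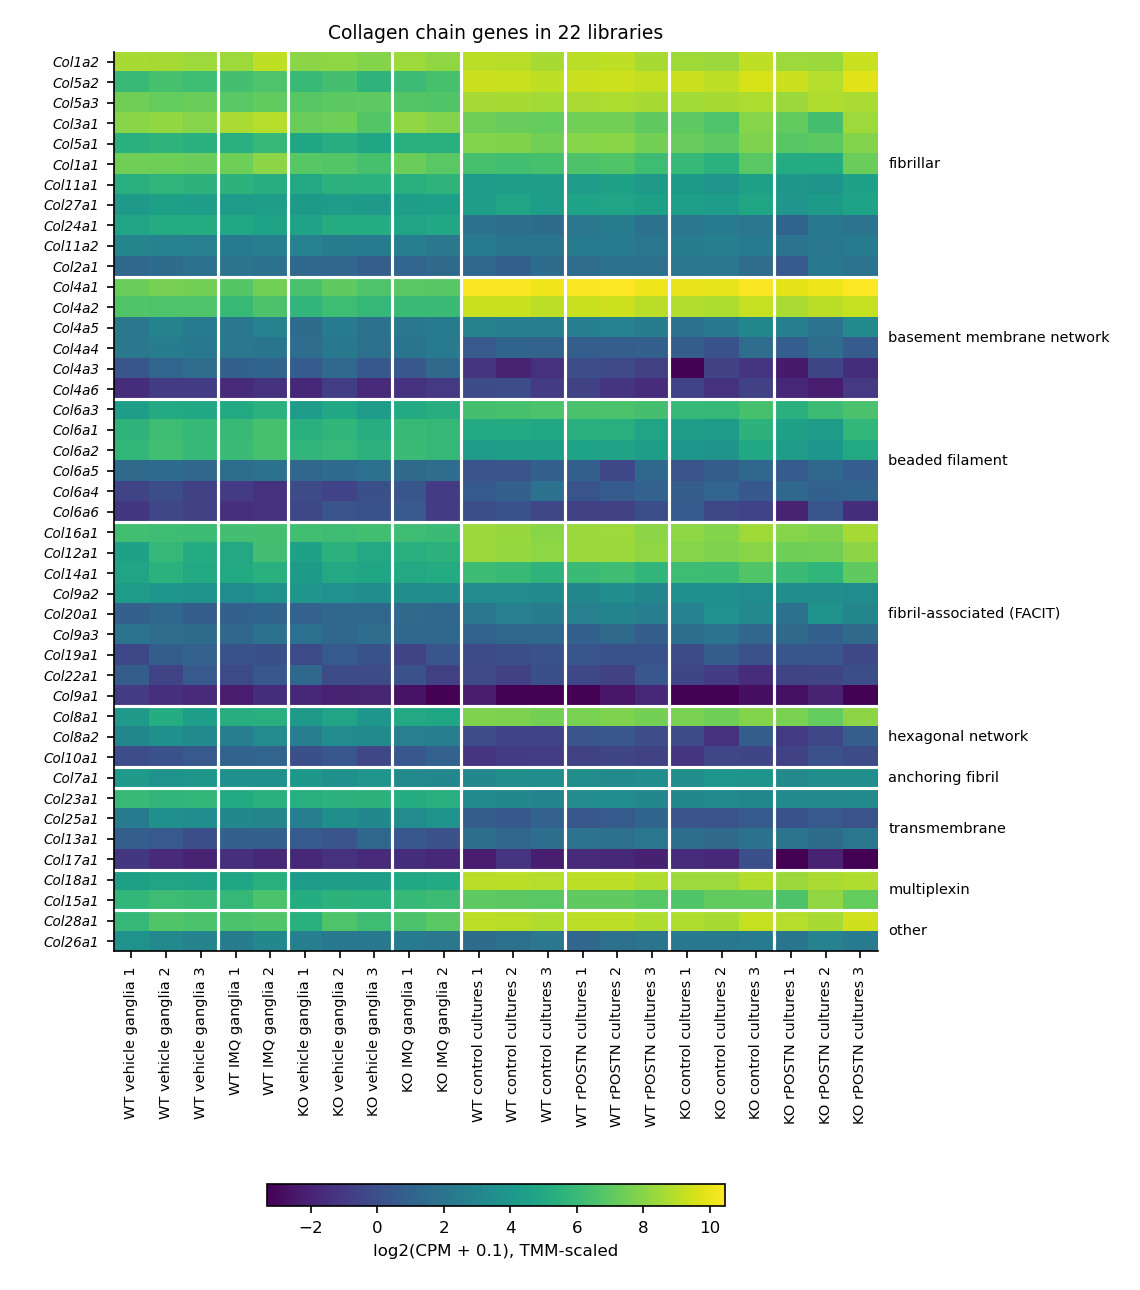
Level of each of the 44 collagen chain genes (rows, by family and, within it, by mean CPM) in each of the 22 libraries (columns), as log2(CPM + 0.1) on TMM-scaled library sizes. Col4a1, Col4a2, Col5a2, Col18a1 and Col28a1 are bright in every culture library, while Col9a1 and Col17a1 are dark in all libraries.

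**Figure D2:**
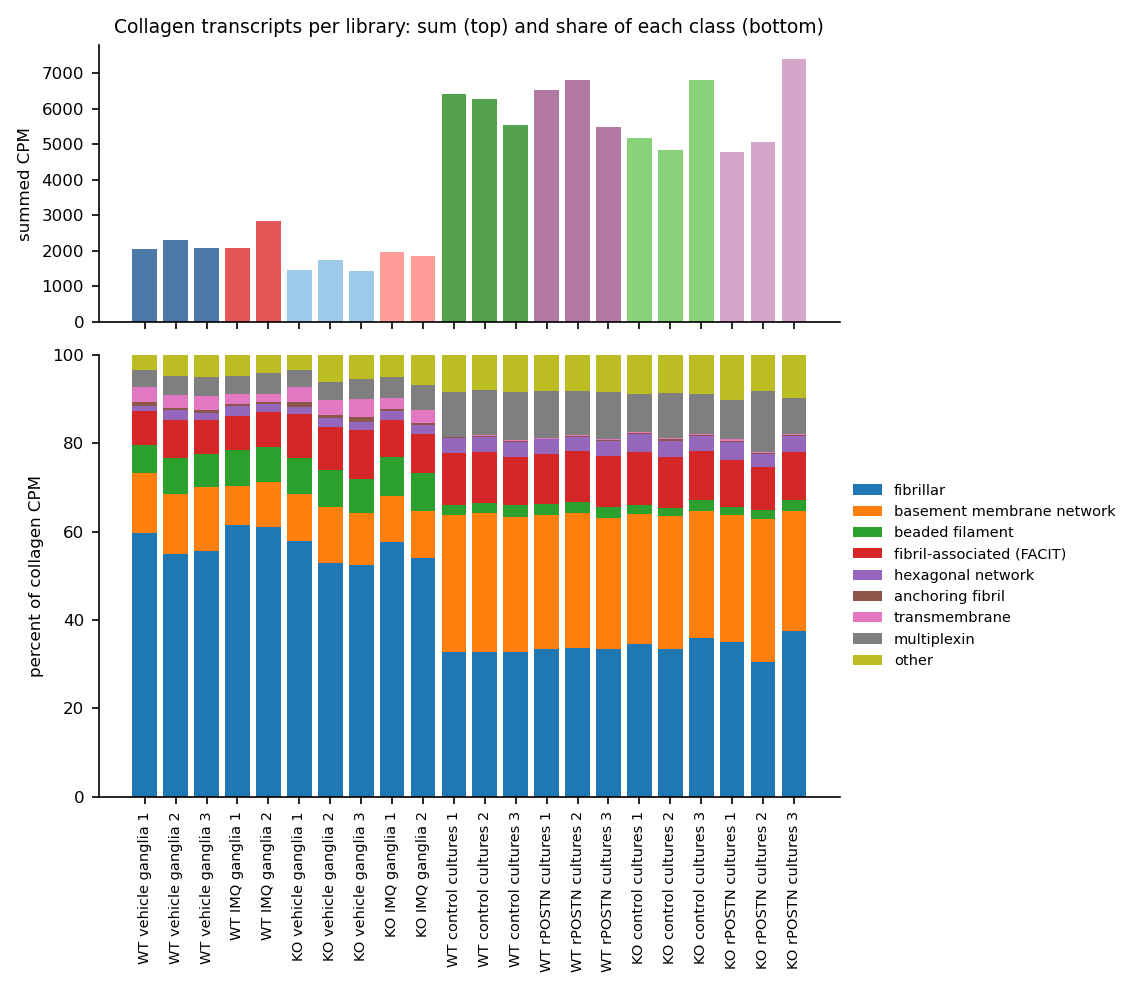
Summed CPM of the 44 genes in each library (top) and the percent of that sum in each collagen family (bottom), libraries in columns. Ganglia range from 1423 to 2846 CPM and cultures from 4776 to 7412 CPM, with the 2 KO culture libraries numbered 3 the highest of the KO cultures.

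Control cultures were compared with vehicle ganglia within each genotype. In culture the common type IV chains, all 3 type V chains, Col18a1 and Col8a1 were higher, while Col23a1, Col24a1 and Col8a2 were lower and the main chains of types I and III did not pass the test in WT. Of the 42 members tested in WT (Col9a1 and Col17a1 were under the filter on low counts), 16 were higher and 15 lower in culture, at an adjusted p below 0.05 in edgeR's quasi-likelihood test. Over all genes tested 33.9% were called higher and 33.6% lower, so the share of collagens called was near the background in a comparison that moved most of the transcriptome. In KO, 18 of 42 were higher and 10 lower, against 35.3% and 33.3% of all genes. Libraries that did not overlap were common over all genes too. In WT 17 members were higher and 18 lower without overlap, against 38% and 36.6% of all genes. In KO 18 were higher and 10 lower in this way, against 36% and 33.5%. The median log2 fold change of the members was -0.10 in WT and 0.23 in KO, beside 0.01 and 0.05 for all genes. The medians were not steady: that of WT was -0.19, -0.07 and -0.02 without WT vehicle ganglia replicate 1, 2 and 3 and -0.16 without WT control cultures replicate 3. That of KO was 0.42 without KO control cultures replicate 2, 0.35 without KO vehicle ganglia replicate 2 and 0.17 without KO control cultures replicate 3. A length offset, a correction for each library's slope of level on exon length, gave -0.33 in WT and 0.04 in KO. The preparation of the samples and the count table they come from cannot be told apart, and the genotypes were not tested against each other here.

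The called members had the same direction in both genotypes wherever they were called in both. The genes higher in both were 16 (Col4a1, Col4a2, Col5a1, Col5a2, Col5a3, Col6a3, Col6a4, Col8a1, Col12a1, Col13a1, Col14a1, Col15a1, Col16a1, Col18a1, Col20a1 and Col28a1), which is 100% of the WT list and 88.9% of the KO list. The genes lower in both were 9 (Col4a3, Col4a4, Col6a2, Col8a2, Col10a1, Col11a1, Col23a1, Col24a1 and Col25a1), 60% of the WT list and 90% of the KO list. In WT alone Col6a1, Col6a5, Col7a1, Col9a2, Col11a2 and Col26a1 were called lower, and in KO alone Col1a2 and Col2a1 were called higher and Col22a1 lower. The other 8 tested members (Col1a1, Col3a1, Col4a5, Col4a6, Col6a6, Col9a3, Col19a1 and Col27a1) were called in neither.

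Some calls of rare chains rested on single libraries. Col6a5 lost its WT call without WT vehicle ganglia replicate 1 or 2 or WT control cultures replicate 1 or 2 (adjusted p 0.00969 to 0.105 over its alternatives). In KO, Col22a1 lost its call without KO vehicle ganglia replicate 1 (0.00204 to 0.127), Col6a4 without KO vehicle ganglia replicate 2 or KO control cultures replicate 2 (0.0132 to 0.0731), Col2a1 without KO vehicle ganglia replicate 3 or KO control cultures replicate 1 or 2 (0.0132 to 0.0872), and Col10a1 without KO vehicle ganglia replicate 1 or 2 or KO control cultures replicate 1 (0.022 to 0.217). Calls were gained by Col19a1 in WT without WT vehicle ganglia replicate 1 (adjusted p 0.0312, 0.0312 to 0.511 over its alternatives), by Col27a1 in KO without KO control cultures replicate 2 (0.0391, 0.0391 to 0.865), and by Col6a1 (0.00258, 1.75e-06 to 0.302) and Col6a5 (0.0286, 0.0267 to 0.297) in KO without KO control cultures replicate 3.

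Basement membrane genes split by chain. Col4a1 stood at 168, 196 and 188 CPM in WT vehicle ganglia and at 1349, 1336 and 1134 CPM in WT control cultures, and at 91.9, 137 and 102 CPM in KO vehicle ganglia and 1038, 1002 and 1329.6 CPM in KO control cultures. Every culture library was above every ganglion library within each genotype, and the log2 fold change was 2.79 ± 0.19 (SE) in WT (adjusted p = 4.72e-11, edgeR) and 3.35 ± 0.19 in KO (adjusted p = 3.59e-12, edgeR). Col4a2, whose product pairs with that of Col4a1 in the common type IV trimer, went from 103.4, 103.1 and 102.6 CPM to 634, 623 and 542 CPM in WT, a log2 fold change of 2.54 ± 0.17. The genes lie head to head and their first exons overlap on opposite strands in the annotation, so reads there cannot be assigned without the strand setting of the counting, which the sources used here do not state. Col4a3 and Col4a4, chains of the specialised type IV network known from kidney and lung, moved the other way: Col4a4 went from 4.79 ± 0.549 to 1.81 ± 0.429 CPM in WT (-1.40 ± 0.31 on the log2 scale, adjusted p = 0.000491, edgeR). Col4a5 and Col4a6 did not pass the test in either genotype.

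The multiplexin Col18a1, whose C-terminal fragment is endostatin, had the smallest p of all members. Its level was 22.8, 26 and 24.3 CPM in WT vehicle ganglia and 514, 515 and 487 CPM in WT control cultures, with no overlap, and the log2 fold change was 4.37 ± 0.16 in WT (adjusted p = 3.79e-15, edgeR) and 4.25 ± 0.16 in KO (adjusted p = 5.28e-15, edgeR). Col15a1, the other multiplexin, went from 65.2 ± 9.11 to 128 ± 6.08 CPM in WT and from 43.2 ± 6.04 to 131 ± 22.3 CPM in KO, log2 fold changes of 0.98 ± 0.26 and 1.6 ± 0.26. Among FACITs, which bind the surface of fibrils, Col12a1 was at 23.4, 57.4 and 36.7 CPM in WT vehicle ganglia and at 336, 313 and 277 CPM in WT control cultures, all of the latter higher (2.98 ± 0.32). Col16a1 (2.04 ± 0.18), Col14a1 (0.81 ± 0.28) and Col20a1 (1.52 ± 0.34) also rose in WT on the log2 scale, while Col9a2, a cartilage FACIT chain, fell by 0.68. Col14a1 lost its WT call when WT vehicle ganglia replicate 1 or WT control cultures replicate 1 was left out (adjusted p 2.11e-08 to 0.089 over its alternatives).

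Fibrillar genes did not move as 1 group. The type V chains, which start and limit the width of type I fibrils, all rose: Col5a2 went from 65.6, 87.8 and 73.3 CPM in WT vehicle ganglia to 649.7, 625 and 572 CPM in WT control cultures (3.03 ± 0.21 on the log2 scale), Col5a1 rose by 2.28 ± 0.25, and Col5a3 went from 181, 150.1 and 165 to 383, 404 and 369 CPM (1.22 ± 0.11). Groups did not overlap for any of the 3, a separation that 38% of all genes showed in this direction in WT. The main fibril chains of types I and III did not pass the test in WT. That fit held all 22 libraries, so the spread of the KO culture libraries numbered 3 entered the WT standard errors. Col1a1 was at 59.8, 44.1 and 122 CPM in KO control and 35.7, 35.6 and 156 CPM in KO rPOSTN cultures. A WT test without the KO culture libraries numbered 3 was not run. Col1a1 stood at 179, 174 and 161 CPM in WT vehicle ganglia and 86.6, 77.9 and 86.1 CPM in WT control cultures, every culture library below every ganglion library, with a log2 fold change of -1.04 ± 0.46 and an adjusted p of 0.0579 (edgeR; 5.13e-15 to 0.121 over its alternatives, below 0.05 with no filter on low counts and with the length offset). Col3a1 was -0.79 ± 0.38 with an adjusted p of 0.0791 (edgeR) and Col1a2 0.31 ± 0.23 with an adjusted p of 0.238 (edgeR).

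In KO, Col1a2 was called higher in culture, at 272, 283 and 235 CPM in ganglia and 368, 334 and 566 CPM in cultures, a log2 fold change of 0.68 ± 0.23 (adjusted p = 0.0131, edgeR). The call was lost without KO control cultures replicate 3 (adjusted p 0.127, edgeR) and without KO vehicle ganglia replicate 3 (adjusted p 0.0526, edgeR), within a range of 2.44e-06 to 0.213 over its alternatives. The minor fibrillar gene Col24a1 fell in both genotypes, from 25.9, 35.9 and 36.3 to 3.43, 3.06 and 2.87 CPM in WT (-3.39 ± 0.23) and from 24.3, 37.0 and 36.7 to 4.17, 5.11 and 4.40 CPM in KO (-2.84 ± 0.22). Col11a1, a cartilage fibril chain, fell by 1.19 in WT and by 1.14 in KO on the same scale.

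Among the membrane-spanning collagens, Col23a1 went from 64.3, 51.8 and 56.2 CPM in WT vehicle ganglia to 9.22, 8.12 and 7.42 CPM in WT control cultures, and from 40.8, 46.7 and 47.5 to 8.67, 9.22 and 7.88 CPM in KO. All cultures were below all ganglia, with log2 fold changes of -2.80 ± 0.13 (adjusted p = 1.39e-13, edgeR) and -2.39 ± 0.13 (adjusted p = 1.17e-12, edgeR). Col25a1, a collagen of neurons, went from 9.14 ± 3.39 to 1.59 ± 0.326 CPM in WT (-2.51 ± 0.29), whereas Col13a1, known from the neuromuscular junction, rose from 1.33 ± 0.413 to 2.74 ± 0.454 CPM (1.05 ± 0.28). The hexagonal network genes split in the same way: Col8a1 stood at 17.1, 37.3 and 21.4 CPM in WT vehicle ganglia and 222, 215 and 189 CPM in WT control cultures (3.04 ± 0.25), and its partner Col8a2 at 7.86, 12 and 9.39 CPM in the ganglia and 0.843, 0.580 and 0.583 CPM in the cultures (-3.86 ± 0.43). Neither overlapped between the groups. Of the type VI chains Col6a3 rose (1.62 ± 0.24 in WT) and Col6a2 fell (-1.63 ± 0.25), and Col6a1 fell in WT with -0.93 ± 0.34, a call lost without WT vehicle ganglia replicate 2 or WT control cultures replicate 3 (adjusted p 1.41e-10 to 0.0796 over its alternatives). Col28a1, which resembles type VI in its domains, rose from 85.6 ± 25.1 to 497 ± 39.5 CPM (2.54 ± 0.27).

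**Figure D3:**
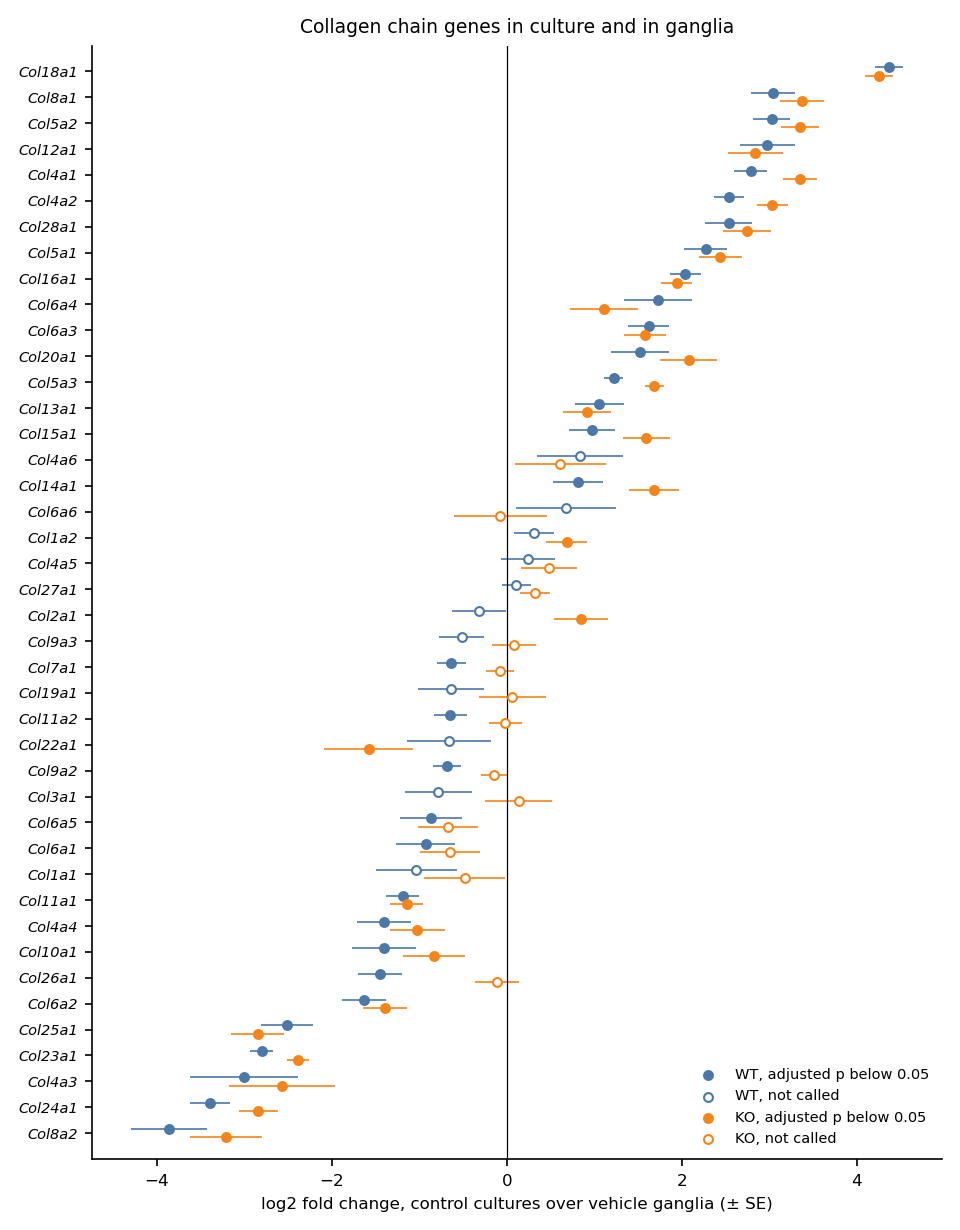
Log2 fold change, control cultures over vehicle ganglia, of each collagen chain gene tested (rows), in WT and in KO, with bars for the standard error and filled points for an adjusted p below 0.05. Col18a1, Col5a2, Col4a1 and Col8a1 lie far to the right and Col24a1, Col8a2 and Col23a1 far to the left in both genotypes.

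The upstream sequences of 4 of these genes, which moved in the same direction in both genotypes, are shown with that of Col3a1, the member with the smallest p in 3 of the ganglion comparisons below. They are the 250 bases before the annotated start in the RefSeq promoter table (build GRCm38.p6), were matched by symbol and overlap no annotated exon. The windows are Col8a1 (chr16:57754738-57754987, minus strand), Col5a3 (chr9:20815068-20815317, minus strand), Col23a1 (chr11:51289670-51289919, plus strand), Col24a1 (chr3:145292222-145292471, plus strand) and Col3a1 (chr1:45311288-45311537, plus strand). Each runs 5′ to 3′ towards the gene, and capitals mark matches on either strand to the letters of the TATA box, TATAAA, to those of the GC box, GGGCGG, or to the CCAAT box.
Col8a1: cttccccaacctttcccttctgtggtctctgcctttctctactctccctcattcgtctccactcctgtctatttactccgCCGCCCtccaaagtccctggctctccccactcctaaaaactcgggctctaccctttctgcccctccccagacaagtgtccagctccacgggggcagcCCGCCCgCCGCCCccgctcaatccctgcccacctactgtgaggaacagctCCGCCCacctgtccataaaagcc
Col5a3: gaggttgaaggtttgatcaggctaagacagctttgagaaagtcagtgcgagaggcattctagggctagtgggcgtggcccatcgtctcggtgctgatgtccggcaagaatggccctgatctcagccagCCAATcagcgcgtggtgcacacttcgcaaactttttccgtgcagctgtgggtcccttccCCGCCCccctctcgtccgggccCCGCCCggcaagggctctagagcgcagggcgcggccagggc
Col23a1: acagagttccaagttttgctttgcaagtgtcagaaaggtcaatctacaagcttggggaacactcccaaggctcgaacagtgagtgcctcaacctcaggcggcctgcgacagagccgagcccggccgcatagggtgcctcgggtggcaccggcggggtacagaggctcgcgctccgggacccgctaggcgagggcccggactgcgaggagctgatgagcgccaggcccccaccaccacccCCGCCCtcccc
Col24a1: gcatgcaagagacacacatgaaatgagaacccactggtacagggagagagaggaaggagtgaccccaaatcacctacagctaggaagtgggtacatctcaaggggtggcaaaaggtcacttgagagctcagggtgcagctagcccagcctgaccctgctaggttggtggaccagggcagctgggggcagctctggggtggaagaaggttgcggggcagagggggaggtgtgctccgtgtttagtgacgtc
Col3a1: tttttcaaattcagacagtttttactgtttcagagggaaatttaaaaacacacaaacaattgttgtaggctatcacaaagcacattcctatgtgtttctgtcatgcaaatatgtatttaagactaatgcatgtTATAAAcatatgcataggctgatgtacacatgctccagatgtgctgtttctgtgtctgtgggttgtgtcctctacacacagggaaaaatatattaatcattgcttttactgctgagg
Counting back from the start, the Col8a1 window held 4 GC boxes on the reverse strand, at 170 to 165, 73 to 68, 66 to 61 and 23 to 18 bases before it. The Col5a3 window held a CCAAT box at 122 to 118 bases and 2 GC boxes at 63 to 58 and 41 to 36 bases. The Col23a1 window held 1 GC box at 11 to 6 bases, Col3a1 a TATA box at 117 to 112 bases, and the Col24a1 window none of these letters. No motifs overlapped in these windows. Of the 35 members with an entry, counted per gene, 21 held a GC box, 13 a CCAAT box and 5 a TATA box. Of all 32817 promoter windows of this length, counted per window, 32.7%, 33.8% and 12.4% did. Genes and windows are unlike units, so these values are not set against each other. These matches describe letters and not factor binding.

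Chain ratios differed between the sample types as well. The ratio of Col1a1 to Col1a2 per kb, whose chains make type I collagen, lay between 0.700 and 0.930 in the 10 ganglion libraries and between 0.197 and 0.467 in the 12 culture libraries, with no overlap. The ratio of Col4a1 to Col4a2 was 1.44 to 1.68 in ganglia and 1.83 to 2.04 in cultures. Col4a1 against Col1a1 spanned 0.591 to 1.11 in ganglia and 7.85 to 27.4 in cultures. These ratios are descriptions with no test.

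Genes that build and handle collagen were counted in 6 lists, beside 33.9% of all genes higher and 33.6% lower in WT and 35.3% and 33.3% in KO. Of 20 folding and modification genes 16 were higher and 2 lower in WT, and 17 and 2 in KO, medians of 1.05 and 1.19 on the log2 scale. Serpinh1, the collagen chaperone HSP47, went from 89.5 ± 8.03 to 430.1 ± 39.3 CPM in WT (2.26 ± 0.21), and Plod1 and Plod2, the lysyl hydroxylases, rose by 1.69 ± 0.13 and 2.1 ± 0.19. Bmp1, the procollagen C-proteinase, rose by 2.40 ± 0.19 and the related Tll1 was -2.39 ± 0.42, with 4 of 8 propeptide genes higher and 2 lower in WT. Of 5 crosslinking genes 3 rose in WT and 4 in KO, among them Loxl1 (3.15 ± 0.21 in WT). Lox itself went from 118 ± 21.7 to 77.4 ± 6.12 CPM in WT, called lower, and from 47.0 ± 12 to 90.9 ± 11.6 CPM in KO, called higher.

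Of 8 fibril-binding proteins 3 were higher and 4 lower in WT, with a median log2 fold change of -0.30. Fn1, fibronectin, rose by 2.70 ± 0.33, while the small proteoglycans Dcn (-3.08 ± 0.27) and Fmod (-5.46 ± 0.81) fell. Of 10 receptors 8 were higher and 2 lower in WT, with Itga2, an integrin chain that binds collagen, at 3.26 ± 0.27 and Ddr1, a collagen receptor kinase, at 1.66 ± 0.11. Of 11 degradation genes 6 were higher and 2 lower in WT, with Mmp14, a membrane collagenase, at 2.81 ± 0.14 and Timp1, a protease inhibitor, at 4.84 ± 0.26.

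Markers of cell types moved in the same comparison. Of 8 fibroblast markers 7 were lower in culture in both genotypes, with sums of 897 to 1129.5 CPM in WT vehicle ganglia and 149 to 154 CPM in WT control cultures. Of 7 myelinating Schwann cell markers 6 were lower, of 4 endothelial markers 3 were higher (sums of 50.2 to 70.7 CPM in WT ganglia and 175 to 195 CPM in WT cultures) and 1 lower, and all 4 cycling markers were higher (7.30 to 13.1 and 86.0 to 99.4 CPM), these counts holding in both genotypes. None of the fibroblast, Schwann cell, endothelial or cycling markers was at 0 in any library. Their part in the collagen values was not tested.

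In vehicle ganglia of KO against WT mice, no collagen passed the test (0 of 41, with 0.0116% of all 17197 genes called; Col4a6, Col9a1 and Col17a1 were under the filter). Before adjustment 11 members had p below 0.05, all of them lower in KO, against 2.2% of all genes lower at that p. In 11 members every KO library lay below every WT library and in 1 above, against 4.01% and 2.9% of all genes. The log2 difference was below 0 in 33 of 41 members with a median of -0.26, beside 7836 of 17197 and 0.02 for all genes, the median was -0.40 without KO vehicle ganglia replicate 2, and the count below 0 was 31 to 35 over the alternatives.

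Col3a1 had the smallest p. It stood at 262, 299.9 and 249.8 CPM in WT and 157, 174 and 110.2 CPM in KO, a log2 difference of -0.87 ± 0.17 (adjusted p = 0.482, edgeR; adjusted p 0.00356 to 1.00 over its alternatives). All 3 KO libraries were below all 3 WT libraries, and the adjusted p was below 0.05 with DESeq2 and with no filter on low counts, where 0.176% and 0.0688% of all genes were called. Both type I genes had the same order: Col1a1 was at 179, 174 and 161 CPM in WT and 119.8, 108 and 87.0 CPM in KO (-0.70 ± 0.20, adjusted p = 1.00, edgeR), and Col1a2 at 401, 389 and 353 CPM in WT and 272, 283 and 235 CPM in KO (-0.53 ± 0.18, adjusted p = 1.00, edgeR), neither with any overlap. Of 11 fibrillar genes 10 were below 0 and 5 had no overlap.

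The type IV pair gave the same order. Col4a2 was at 103.4, 103.1 and 102.6 CPM in WT and 54.4, 72.9 and 58.8 CPM in KO (-0.73 ± 0.16, adjusted p = 0.698, edgeR; 0.0291 to 1.00 over its alternatives), and Col4a1 at 168, 196 and 188 CPM in WT and 91.9, 137 and 102 CPM in KO (-0.74 ± 0.19). The 3 WT values of Col4a2 lay within 1 CPM of each other. Col5a3 was at 181, 150.1 and 165 CPM in WT and 117, 125 and 130.5 CPM in KO (-0.41 ± 0.10), again with no overlap. Lox, the crosslinking enzyme, was at 118 ± 21.7 CPM in WT and 47.0 ± 12 CPM in KO (-1.33 ± 0.22, adjusted p = 0.264, edgeR), and of the 6 lists of collagen-handling genes no gene but Postn was called.

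Beside these values, all 7 myelinating Schwann cell markers had log2 differences below 0 (median -0.68, 0 called), with sums of 9783 to 14971 CPM in WT and 6391 to 7581 CPM in KO. The 8 fibroblast markers were 4 above and 4 below 0 (sums of 897 to 1129.5 and 898 to 993 CPM). All 3 skeletal muscle markers were below 0 with sums of 2.91 to 88.8 CPM in WT and 2.79 to 18.6 CPM in KO. All 4 endothelial markers were below 0 too (median -0.22, 0 called), with overlapping sums of 50.2 to 70.7 CPM in WT and 44.2 to 64.1 CPM in KO. So were 4 of 5 mural markers (296 to 389 and 301 to 371 CPM), 3 of 4 satellite glia markers (839 to 995 and 725 to 877 CPM) and 3 of 4 adipocyte markers (4.53 to 7.54 and 2.96 to 5.30 CPM), 0 of them called. Of 4 markers of non-myelinating and immature Schwann cells 3 were below 0 too. The other way went 5 of 6 neuron markers (7466 to 8197 CPM in WT and 8108 to 8715 CPM in KO), 3 of 4 erythroid and 3 of 4 cycling markers, 0 of them called. KO vehicle ganglia replicate 1 stood apart in erythroid markers, at 429 CPM against 37.9 and 76.4 CPM in the other KO vehicle libraries, and without it 32 of 41 collagens were below 0, with a median of -0.26. Their part in the collagen differences was not tested.

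In IMQ ganglia of KO against WT, no collagen passed the test either (0 of 41; 0.00581% of all genes), and DESeq2 called none. Before adjustment 7 members had p below 0.05, 6 of them lower in KO, against 1.85% of all genes. Libraries did not overlap in 15 members, 11 lower and 4 higher in KO, where 16.9% and 16.3% of all genes separate in the same way with 2 libraries a group. The median log2 difference was -0.25 with 32 of 41 members below 0, beside -0.00 for all genes. It rested on single libraries: the median was -0.38 without WT IMQ ganglia replicate 1 and -0.16 without KO IMQ ganglia replicate 1, and without WT IMQ ganglia replicate 2, 21 of 41 were below 0 and the median was -0.02. Col3a1 was at 414 and 495 CPM in WT and 293 and 242 CPM in KO (-0.77 ± 0.21, adjusted p = 0.997, edgeR), with no overlap. Col1a1 was at 168 and 271 CPM in WT and 167 and 122 CPM in KO (-0.60 ± 0.24), where replicate 1 of each genotype had nearly the same value. Col6a6, a rare type VI chain, was at 0.268 and 0.313 CPM in WT and 1.35 and 0.444 CPM in KO (1.61 ± 0.58, adjusted p = 0.997, edgeR), the KO libraries higher. All 4 macrophage markers (sums of 222 to 236 CPM in WT and 189 to 217 CPM in KO) and 4 of 6 neuron markers (8421 to 8671 and 7651 to 7914 CPM) were below 0. All 4 markers of non-myelinating and immature Schwann cells were above 0 (1710 to 1753 and 1768 to 2085 CPM). Of 8 fibroblast markers 5 were below 0, with overlapping sums. None of these was called, and their part in the collagen values was not tested.

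IMQ was compared with vehicle within each genotype, and no collagen passed the test (0 of 41 in WT with 1.3% of all genes called, 0 of 41 in KO with 1.1%). Before adjustment 5 members had p below 0.05 in each genotype, against 7.27% of all genes in WT and 8.39% in KO. Col3a1 stood at 262, 299.9 and 249.8 CPM in WT vehicle and 414 and 495 CPM in WT IMQ ganglia, while the KO ganglia held 157, 174 and 110.2 CPM given vehicle and 293 and 242 CPM given IMQ. Both IMQ libraries were above all 3 vehicle libraries in each genotype. In WT, libraries did not overlap in 8 members higher and 8 lower with IMQ, against 11.5% and 9.91% of all genes. In KO, 11 members were higher and 3 lower without overlap, against 12.7% and 11% of all genes. These comparisons share their vehicle and IMQ libraries with the genotype comparisons above. The log2 difference was 0.75 ± 0.19 in WT (adjusted p = 0.141, edgeR; 0.0192 to 0.854 over its alternatives) and 0.85 ± 0.19 in KO (adjusted p = 0.0942, edgeR; 0.00458 to 0.645 over its alternatives). DESeq2 (1.9% of all genes called in WT and 1.3% in KO) and the fit with no filter on low counts (0.966% and 0.788%) called it in both genotypes, and the fit with the replicate number as a block (1.39%) called it in KO.

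Col18a1 had the same order: 22.8, 26 and 24.3 CPM in WT vehicle and 27.7 and 40.8 CPM in WT IMQ, and 19.4, 20.5 and 21.3 CPM in KO vehicle and 31.2 and 34.6 CPM in KO IMQ, with no overlap in either genotype. Its log2 difference was 0.48 ± 0.15 in WT (adjusted p = 0.306, edgeR) and 0.68 ± 0.15 in KO (adjusted p = 0.0965, edgeR; 0.0217 to 0.553 over its alternatives). Col23a1 was at 64.3, 51.8 and 56.2 CPM in WT vehicle and 34.7 and 42.8 CPM in WT IMQ ganglia (-0.57 ± 0.14, adjusted p = 0.109, edgeR; 0.0234 to 0.674 over its alternatives), and stood at 40.8, 46.7 and 47.5 CPM in the KO ganglia given vehicle and 37.5 and 40.2 CPM in KO IMQ ganglia, where 40.8 CPM in 1 vehicle library came close to the higher IMQ value. Col1a1 and Col1a2 overlapped between WT groups: WT IMQ ganglia replicate 1 was at 168 and 343 CPM and replicate 2 at 271 and 573 CPM. That pair of libraries differed over the whole family, with summed collagen levels of 2081 and 2846 CPM.

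Markers of other cells moved in these comparisons. All 7 myelinating Schwann cell markers were below 0 with IMQ in WT (median -0.85, 1 called lower), with sums of 9783 to 14971 CPM given vehicle and 5139 to 7415 CPM given IMQ, and 6 of 7 were below 0 in KO (median -0.32, 0 called; 6391 to 7581 and 5183 to 5622 CPM). Of 4 macrophage markers 3 rose in each genotype, with sums of 51.5 to 72.1 CPM in WT vehicle and 222 to 236 CPM in WT IMQ ganglia. All 4 erythroid markers were below 0 and all 4 adipocyte markers above 0 in both genotypes, 0 of them called, with WT medians of -1.79 and 1.94 on the log2 scale. In KO all 4 satellite glia markers were above 0 (0 called), with sums of 725 to 877 CPM given vehicle and 1021 to 1085 CPM given IMQ. Of 4 endothelial markers 3 were above 0 in each genotype, 0 called. Their sums were 44.2 to 64.1 CPM in KO vehicle and 73.7 to 76.8 CPM in KO IMQ ganglia, and overlapped in WT. Of 6 neuron markers 5 were above 0 in WT and 5 below 0 in KO (KO sums 8108 to 8715 and 7651 to 7914 CPM), 0 called. All 4 cycling markers were above 0 in each genotype, 0 called. Of 8 fibroblast markers 5 were above 0 in each genotype and 0 were called. Their part in the collagen values was not tested.

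The interaction of genotype and IMQ called no member (0 of 41, with 0% of all genes called; 0 members and 2.12% of all genes had p below 0.05 before adjustment, and DESeq2 called no member). For Col3a1 it was 0.10 ± 0.27 on the log2 scale (KO minus WT) and for Col18a1 0.19 ± 0.22. Of the collagen-handling genes 0 were called in the interaction. In IMQ against vehicle 1 was called in each genotype, the inhibitory collagen receptor Lair1 of immune cells. It rose from 3.29 ± 0.220 (n = 3) to 8.51 ± 0.179 (n = 2) CPM in WT (1.37 ± 0.15, adjusted p = 0.00126, edgeR). In KO it rose from 3.53 ± 0.230 to 9.20 ± 0.539 CPM (1.37 ± 0.14, adjusted p = 0.00169, edgeR). The macrophage markers given above rose in the same comparisons, none of them at 0 in any library, and their part in the Lair1 values was not tested.

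**Figure D4:**
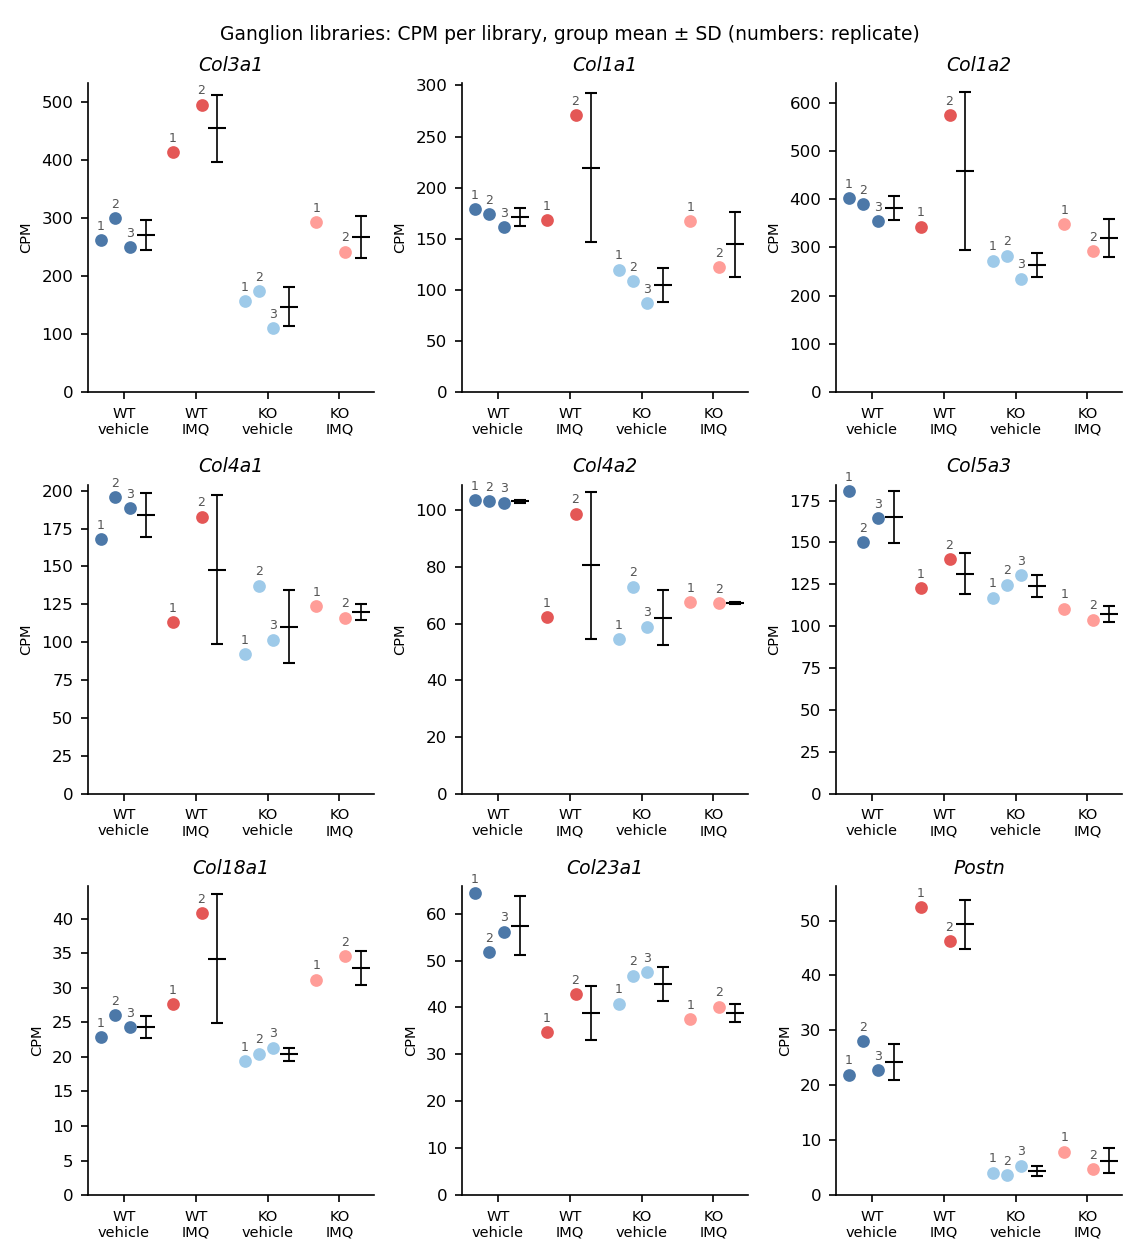
CPM of 8 collagen chain genes and Postn in each ganglion library (points, numbered by replicate) with the group mean and SD (bars), for WT and KO with vehicle or IMQ. Col3a1 is higher with IMQ than with vehicle within each genotype and lower in KO than in WT within each treatment, without overlap, while Col1a1 and Col1a2 are spread widely between the 2 WT IMQ libraries.

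In control cultures of KO against WT, 0 of 42 collagens passed the test, where 1.61% of all genes did. Before adjustment 5 members had p below 0.05 against 15.9% of all genes, 3 higher and 2 lower in KO (7.57% and 8.37% of all genes). Libraries did not overlap in 6 members higher and 2 lower in KO, against 14.3% and 14.6% of all genes. The log2 difference was above 0 in 23 members and below 0 in 19 (median 0.02). With both KO culture libraries numbered 3 left out, 15 were above 0 and 27 below (median -0.18). Col18a1 was at 514, 515 and 487 CPM in WT and 347, 353 and 466 CPM in KO (-0.38 ± 0.13, adjusted p = 0.164, edgeR), every KO library below every WT library. Col12a1, the FACIT, was at 336, 313 and 277 CPM in WT and 252, 221 and 259 CPM in KO, again without overlap (-0.34 ± 0.15, adjusted p = 0.27, edgeR). Col20a1, another FACIT, went the other way. It was at 4.43, 6.27 and 5.67 CPM in WT and 6.88, 12.4 and 9.04 CPM in KO, every KO library above every WT library. Among collagen-handling genes P3h2, a prolyl 3-hydroxylase, was the 1 gene called, at 25.7 ± 1.68 CPM in WT and 16.6 ± 2.25 CPM in KO (-0.63 ± 0.14, adjusted p = 0.0319, edgeR). Markers of several cell types stood lower in KO. All 4 endothelial markers were below 0 with 1 called (sums of 175 to 195 CPM in WT and 142 to 146 CPM in KO), and all 4 satellite glia markers with 1 called (859 to 929.7 and 639 to 717 CPM). All 4 markers of non-myelinating and immature Schwann cells (939.9 to 1031 and 765 to 852 CPM) and 4 of 5 mural markers (185 to 199 and 139.6 to 170.3 CPM) were below 0 with 0 called. None of these 4 sums overlapped between the genotypes, and the part of these cells in the collagen values was not tested.

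The KO control culture numbered 3 set much of the spread. Col1a1 was at 86.6, 77.9 and 86.1 CPM in WT and 59.8, 44.1 and 122 CPM in KO, so the first 2 KO libraries were below and the last above all WT libraries. Its log2 difference was -0.15 ± 0.61 (adjusted p = 0.941, edgeR) with all libraries and -0.69 (adjusted p = 0.0422, edgeR) with both KO culture libraries numbered 3 left out, in a range of -0.69 to 0.12 and adjusted p of 0.0422 to 1.00 over its alternatives. Leaving them out, Col18a1 (-0.54, adjusted p = 0.0262, edgeR; 0.00209 to 0.426 over its alternatives) and Col5a1 (-0.63, adjusted p = 0.0485, edgeR; 0.0485 to 0.84 over its alternatives) were also called lower in KO, 3 of 42 members beside 2.13% of all genes. Col3a1 was at 172, 153 and 146 CPM in WT and 134, 99.8 and 252 CPM in KO. Summed collagen levels were 6414, 6272 and 5531 CPM in WT and 5185, 4836 and 6821 CPM in KO. Among KO cultures the libraries with the highest collagen sums were those with the high fibroblast marker sums and the high Postn given above. These 2 libraries also had the highest KO culture sums of cycling (153 and 187 CPM) and mural markers (170 and 196 CPM). The same held for myelinating (2298 and 2335 CPM) and non-myelinating and immature Schwann cell markers (852 and 872 CPM). Their neuron marker sums were the lowest, at 3512 and 3492 CPM. The part of any of these cells in the values was not tested.

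Cultures with rPOSTN were compared with control cultures. No collagen passed the test in WT (0 of 42, 0% of all genes called) or in KO (0 of 40, 0% of all genes called; Col4a3, Col4a6, Col9a1 and Col17a1 under the filter), and DESeq2 called none either. Before adjustment 5 members had p below 0.05 in WT, all higher with rPOSTN, against 1.73% of all genes higher at that p, and 0 in KO against 0.925% of all genes. In WT every rPOSTN library was above every control library in 7 members and below in 0, against 5.1% and 4.68% of all genes. The median log2 difference of the members was 0.06 in WT and 0.01 in KO. Leaving out 1 library moved the WT median to between 0.01 (without WT rPOSTN cultures replicate 2) and 0.12 (without replicate 3 of that group). The KO median was -0.22 without KO rPOSTN cultures replicate 3, with 10 of 40 members above 0 in place of 24. It was 0.16 without KO control cultures replicate 3 and -0.06 with both libraries numbered 3 left out.

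In WT the smallest p was that of Col4a3, a rare type IV chain, at 0.316, 0.158 and 0.292 CPM without and 0.849, 0.724 and 0.522 CPM with rPOSTN (1.41 ± 0.46, adjusted p = 0.999, edgeR). All rPOSTN libraries were above all control libraries, at levels that rest on few counts. Col24a1 was at 3.43, 3.06 and 2.87 CPM without and 4.25, 5.39 and 3.51 CPM with rPOSTN (0.50 ± 0.19), and Col5a3 at 383, 404 and 369 CPM without and 412, 428 and 404 CPM with it (0.10 ± 0.05). Among the abundant chains Col4a1 was at 1349, 1336 and 1134 CPM without and 1335, 1410.0 and 1087 CPM with rPOSTN (-0.00 ± 0.12), Col18a1 at 514, 515 and 487 CPM without and 550.0, 550.2 and 458 CPM with it (0.03 ± 0.06), and Col1a2 at 515, 502 and 402 CPM without and 531, 556 and 399 CPM with it (0.06 ± 0.17). For these 3 the groups overlapped, and replicate 3 was the lowest library in both groups.

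In KO, Col1a2 was at 368, 334 and 566 CPM without and 344, 331 and 635 CPM with rPOSTN, and Col3a1 at 134, 99.8 and 252 CPM without and 140.4, 82.8 and 349 CPM with it. In both groups the library numbered 3 was the highest for both genes. The log2 difference was 0.04 ± 0.31 for Col1a2 and 0.24 ± 0.66 for Col3a1, and -0.06 and -0.07 with both libraries numbered 3 left out. Col15a1 was spread differently, at 105, 144 and 144 CPM without and 97.1, 286 and 148 CPM with rPOSTN, where replicate 2 of the rPOSTN group was the highest of all culture libraries. The interaction of genotype and rPOSTN called no member (0 of 42, 0% of all genes called; 1 member and 1.95% of all genes with p below 0.05 before adjustment), with the smallest p for Col24a1 (-0.88 ± 0.37, adjusted p = 1.00, edgeR). It was above 0 in 14 members and below 0 in 28 (median -0.06). With both libraries numbered 3 left out the counts were 13 and 29 (-0.14). They were 27 and 15 (0.11) without KO control cultures replicate 3, and 6 and 36 (-0.30) without KO rPOSTN cultures replicate 3.

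**Figure D5:**
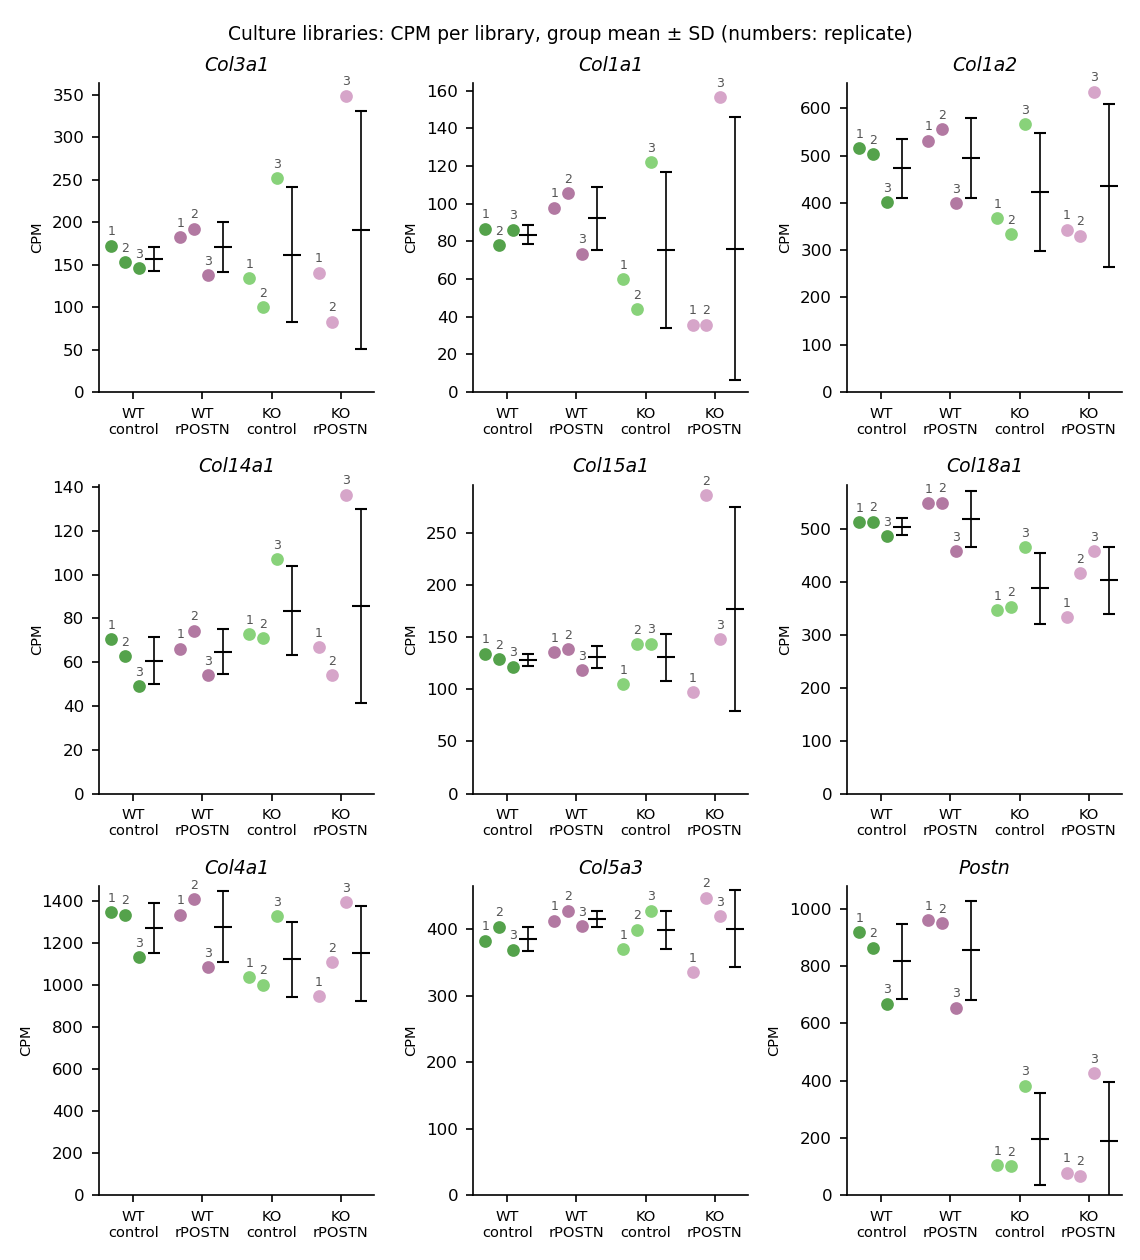
CPM of 8 collagen chain genes and Postn in each culture library (points, numbered by replicate) with the group mean and SD (bars, cut off at 0), for WT and KO without and with rPOSTN. WT groups overlap for every gene but Col5a3, and the KO libraries numbered 3 are the highest KO libraries for Col1a1, Col1a2, Col3a1, Col14a1, Col4a1 and Postn.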

How the data were processed

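Poly-A RNA of 10 ganglion and 12 culture libraries was sequenced with a strand-specific dUTP kit, per the labels' protocols. The authors deposited 3 tables of raw counts per Ensembl gene (10 ganglion, 6 WT culture and 6 KO culture libraries). Per the submitters' processing notes, the tools were TopHat2, Bowtie2 2.2.3 and HISAT2 2.1 and the build GRCm39, with no role or order stated. The sources used here do not name the counter, its strand setting or the annotation release. Symbols and exon lengths came from GENCODE M21 (GRCm38), with a symbol for 55141 of 55487 IDs.

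Counts were tested with edgeR 4.0.16 (R 4.3.3; robust quasi-likelihood F test, two-sided), after filterByExpr and TMM scaling, p-values adjusted by Benjamini-Hochberg over each fit's genes, and calls at 0.05. There were 11 comparisons in 5 fits, on the 10 ganglion libraries (17197 genes passed the filter), the 6 WT cultures (16639), the 6 KO cultures (16756), the 12 cultures (17519) and all 22 libraries (19546). The SE of a log2 fold change is its size divided by the square root of F. Levels are CPM on TMM-scaled library sizes over all 22 libraries. At 16666489 to 24118303 counts a library, members below about 1 CPM rest on few counts. The test was tried on simulated counts first. Alternatives were DESeq2 1.42.0, DESeq2's size factors in edgeR, no filter, the replicate number as a block, only the groups compared in the fit, and each library left out; a length offset and leaving out both KO culture libraries numbered 3 were chosen after seeing the data.

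Groups came from the sample labels. Same-numbered libraries deviated together between WT and KO vehicle ganglia (r of residuals over 10801 genes 0.885, 0.839 and 0.161). So did those of control and rPOSTN cultures in WT (0.322, 0.306 and 0.575) and in KO (0.376, 0.682 and 0.598). The labels do not say what these libraries share. The main fits held the groups only, with no term for the replicate number, so their p-values ignore any such pairing. The replicate block was an alternative setting. The named genes were Postn, the members called in any comparison (up to 8 by p), the 10 members with the highest mean CPM per kb and up to 4 genes of each collagen-handling list by p; Col14a1, Col15a1 and other members were added by their values. The members, families and lists were chosen with earlier results of these data known.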

Additional observations from a re-analysis of the deposited data

How the results depend on the processing

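The counts of collagens called were within 1.5 times of the values above in 126 of 135 settings. The other 9 made calls where edgeR's quasi-likelihood fit had made 0. With no filter on low counts, calls were 1 for IMQ in WT ganglia (Col3a1; 0.966% of all genes), 2 for IMQ in KO ganglia (Col3a1 and Col18a1; 0.788%), 2 for KO against WT in vehicle ganglia (Col3a1 and Col4a2; 0.0688%) and 3 for KO against WT in control cultures (Col12a1, Col18a1 and Col20a1; 1.83%). DESeq2 called 2 (Col3a1 and Col23a1; 1.9% of all genes), 2 (Col3a1 and Col18a1; 1.3%) and 2 (Col3a1 and Col4a2; 0.176%) in the first 3 of these, and no collagen in the control cultures. With both KO culture libraries numbered 3 left out, a setting chosen after seeing the data, KO against WT in control cultures called 3. The cause of these differences was not tested. Leaving out 1 library at a time gave 29 to 31 calls between WT cultures and ganglia and 26 to 29 in KO, and 0 in the other 9 comparisons. Of 1507 values of single members under these settings, 1420 kept their direction and their side of the threshold, 26 lost a call, 32 gained one and 29 changed sign. The lost calls were all in the comparisons of cultures with ganglia, 19 of them with 1 library left out; the length offset lost Col1a2, Col2a1, Col6a4 and Col10a1 in KO, DESeq2 lost Col6a5 in WT and Col10a1 in KO, and the fit with no filter lost Col10a1 in KO.

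The changes of sign were in log2 differences that had not passed the test. Leaving out 1 library gave, at the lowest and highest, -0.020 to 0.65 for Col1a1 and -0.15 to 0.58 for Col1a2 with IMQ in WT, and -0.065 to 0.24 for Col3a1 and -0.054 to 0.49 for Col18a1 in the interaction of genotype and IMQ. With rPOSTN it gave -0.078 to 0.11 for Col4a1, -0.0076 to 0.12 for Col18a1 and -0.044 to 0.20 for Col1a2 in WT, and -0.33 to 0.31 for Col1a2, -0.54 to 0.71 for Col3a1 and -0.095 to 0.73 for Col15a1 in KO. For KO against WT in control cultures it gave -0.69 to 0.12 for Col1a1 and -0.43 to 0.29 for Col3a1. The length offset gave -0.038 for Col3a1 in the interaction of genotype and IMQ, DESeq2 0.0015 and its size factors 0.0022 for Col4a1 with rPOSTN in WT, and the replicate block -0.085 for Col3a1 in control cultures. With both KO culture libraries numbered 3 left out, Col3a1 was -0.43 in control cultures, and Col1a2 was -0.060 and Col3a1 -0.068 with rPOSTN in KO. The cause was not tested.

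With the replicate number as a block, IMQ in KO ganglia called 2 members (Col3a1 and Col18a1; 1.39% of all genes) in place of 0, where only 2 numbers are shared (r 0.74 and 0.743). The block changed no other call count of the members by over 1.5 times. Numbers did not pair WT with KO cultures (r -0.0125, -0.156 and -0.299).

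Member exons are long (median 7621 bases against 4079 for all genes tested in ganglia), and libraries differed in the slope of level on length (-0.197 to 0.148 log2 units per doubling in ganglia). A length offset, chosen after seeing the data, gave 32 of 41 members below 0 for KO against WT in vehicle ganglia (33 without it) and 36 in IMQ ganglia (32 without it). It lowered the members above 0 from 27 to 22 for IMQ in KO (median 0.15 to 0.02) and from 29 to 24 for the interaction of genotype and IMQ (0.11 to 0.03). Libraries of 2 a group limit the IMQ comparisons.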
